A study of Mus musculus with 4 samples.

Results

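The germline genes Dazl, Ddx4, Sycp1, Sycp2, Sycp3, Mael, Tex101, Stk31, Tdrd1 and Stra8 were followed by gene symbol in 4 bulk RNA libraries. All 10 had a row among the 78028 rows of the count tables. The libraries came from 4 separately grown cultures of E14TG2a, a male mouse embryonic stem cell line, that had been taken through the advanced hepatic-inducing cocktail (A-HIC) and are labelled hepatocyte-like cells. They form 1 group, with no untreated stem cells and no liver or gonad beside them, and are called libraries 1 to 4 after their replicate numbers. Polyadenylated RNA was sequenced without strand information, and the libraries held 29518642 to 40154964 counts.

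These genes act in germ cells. Dazl and Ddx4 handle germ cell RNA, Mael and Tdrd1 serve the piRNA pathway that silences transposons, Stra8 starts meiosis, and the Sycp proteins build the synaptonemal complex that pairs chromosomes. In somatic cells such genes are known to be kept silent by methylation of CpG-rich promoters and by PRC1.6, a Polycomb complex that reaches DNA through E2F6 and through the MGA and MAX proteins, which bind the E-box CACGTG. Mouse embryonic stem cells are known to express some of them. DNA methylation was not measured here, so the name methylation-sensitive could not be checked.

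The promoters were read from RefSeq windows on GRCm38.p6 that run from 250 bases before to 50 bases after the annotated start, and all 10 genes had one. Where several starts were listed, the first was used. CACGTG stood in the windows of 6 of the 10 genes, against 7.9% of 17492 protein-coding genes. It began 223 bases before the start in Mael, 94 in Sycp1, 55 in Stk31, 29 in Ddx4 and 11 in Tdrd1, and Sycp3 held it at 64 and at 43 bases. The E2F-like motif GCGGGAA, searched on both strands as was CACGTG, stood in Sycp3 and Ddx4, 2 of 10, against 5.99% of protein-coding genes. The windows of Dazl, Stra8, Tex101 and Sycp2 held neither motif. The motifs do not overlap each other in any of these windows, and a match describes letters and not a bound site.

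Of these promoters 4 are printed, the pair with both motifs and the pair with the widest range between cultures among the 7 genes called expressed further on, each as the 250 bases before the start, 5′ to 3′, with the motifs in capitals. They lie at chr10:88459337-88459586 (plus strand) for Sycp3, chr13:112652311-112652560 (minus strand) for Ddx4, chr6:34920698-34920947 (plus strand) for Stra8 and chr17:50293621-50293870 (minus strand) for Dazl.
Sycp3: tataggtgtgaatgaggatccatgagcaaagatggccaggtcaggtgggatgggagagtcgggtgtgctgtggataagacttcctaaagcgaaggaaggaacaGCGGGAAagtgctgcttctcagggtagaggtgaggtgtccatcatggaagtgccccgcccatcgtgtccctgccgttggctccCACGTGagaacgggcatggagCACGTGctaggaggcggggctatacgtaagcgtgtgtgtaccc
Ddx4: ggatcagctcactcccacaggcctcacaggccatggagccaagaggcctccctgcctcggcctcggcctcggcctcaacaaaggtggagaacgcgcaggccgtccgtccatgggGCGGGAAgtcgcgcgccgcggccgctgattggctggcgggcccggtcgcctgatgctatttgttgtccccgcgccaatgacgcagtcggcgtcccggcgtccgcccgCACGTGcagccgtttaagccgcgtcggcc
Stra8: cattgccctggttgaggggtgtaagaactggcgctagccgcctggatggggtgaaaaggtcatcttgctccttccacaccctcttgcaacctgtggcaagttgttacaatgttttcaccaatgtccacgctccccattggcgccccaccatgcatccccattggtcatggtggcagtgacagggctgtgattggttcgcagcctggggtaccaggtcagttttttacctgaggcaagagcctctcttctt
Dazl: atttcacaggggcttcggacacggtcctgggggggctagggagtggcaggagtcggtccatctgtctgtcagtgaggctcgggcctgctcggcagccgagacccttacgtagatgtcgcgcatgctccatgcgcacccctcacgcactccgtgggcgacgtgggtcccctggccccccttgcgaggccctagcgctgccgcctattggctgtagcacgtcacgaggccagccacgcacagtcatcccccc

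CpG density set the promoters apart from each other. The ratio of observed to expected CpG had a median of 0.756 over the 10 genes and 0.576 over protein-coding genes. Ddx4 was highest at 0.978, with 38 CpG in 300 bases, and Stk31 (0.908), Sycp1 (0.874), Dazl (0.795), Mael (0.780) and Tdrd1 (0.733) followed. Tex101 stood at 0.700 and Sycp3 at 0.666. Stra8 (0.430) and Sycp2 (0.363) had the fewest CpG, with 10 each, and lay below the protein-coding median. Among 50 germline partner genes with a window, described further on, 30.0% held CACGTG, and among 21 spermatid and oocyte genes 4.76% did. CACGTG itself holds a CpG, and these sets differed in CpG. The median number per window was 20.5 for the 10 genes, 17 for the partners, 4 for the spermatid and oocyte genes and 13 over protein-coding genes. No background matched for CpG was used.

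**Figure D1:**
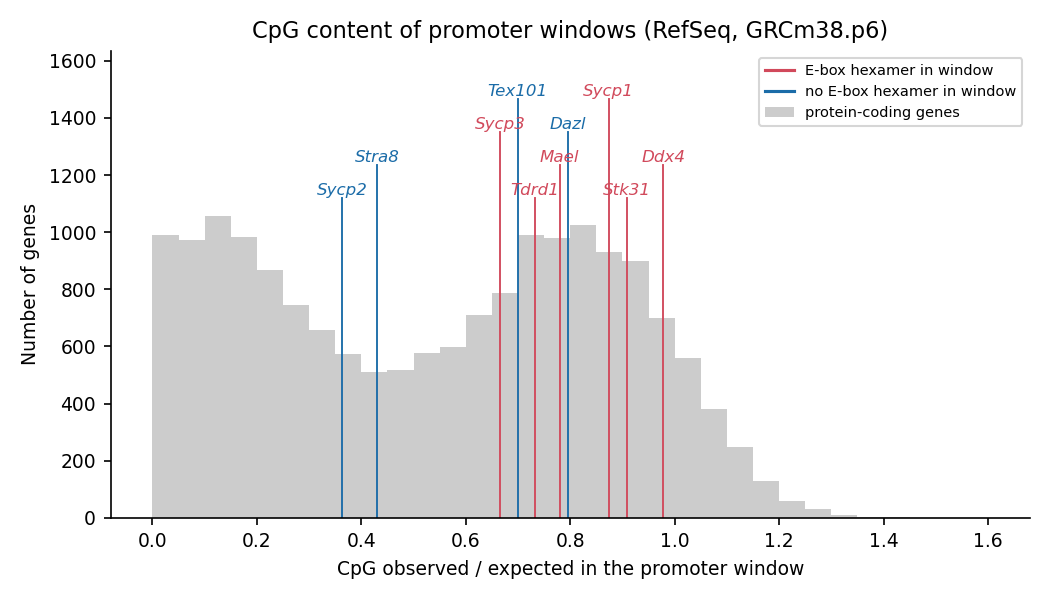
Observed over expected CpG in the promoter window (x axis) of protein-coding genes (grey bars, number of genes on the y axis), with a line for each of the 10 germline genes, red where the window holds the E-box hexamer and blue where it does not. Sycp2 (0.363) and Stra8 (0.430) stand apart on the left, and Ddx4 (0.978) is farthest right.

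Most of the genes were transcribed in every culture. Levels are given in TPM, a transcript abundance scaled for gene length and library size, computed from the deposited counts and exon lengths of GENCODE M21, and a gene counts as expressed where no library fell below 1 TPM. Stra8, Sycp3, Mael, Ddx4, Dazl, Sycp1 and Stk31 passed, 7 of 10, against 63.4% of 19919 protein-coding genes, so the share is near the background. None of the 10 was undetected (3 counts or fewer in every library), against 16.8% of protein-coding genes. The median of their mean levels was 9.64 TPM, beside 7.59 TPM over protein-coding genes.

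Of the regulators of meiosis and mRNA, Stra8, the retinoic acid-induced factor that starts meiosis, had the highest mean level of the 10, though Sycp3 and Mael were above it in library 2. It had 1333, 312, 924 and 549 counts, or 71.5, 17.0, 65.1 and 29.2 TPM, in libraries 1 to 4, a mean of 45.7 ± 26.7 TPM (SD, n = 4). Libraries 1 and 3 were high and library 2 was lowest. Dazl, an RNA-binding protein that controls translation in germ cells, had 770, 193, 358 and 298 counts, or 19.5, 4.97, 11.9 and 7.49 TPM, a mean of 10.97 ± 6.37 TPM. Its libraries fell in the same order as those of Stra8, from library 1 down through 3 and 4 to 2. Ddx4, the germ cell RNA helicase also called Vasa, stood at 14.5, 13.9, 21.1 and 15.6 TPM (mean 16.3 ± 3.29 TPM). Its highest value was in library 3, and the other 3 libraries were close to each other.

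The synaptonemal complex genes were at unequal levels. Sycp3, a protein of the lateral elements, stood at 49.3, 42.1, 35.9 and 27.9 TPM (mean 38.8 ± 9.09 TPM). Sycp1, which forms the transverse filaments between them, stood at 9.04, 7.89, 8.498 and 7.83 TPM (8.31 ± 0.569 TPM), and its highest library was 1.15 times its lowest, the smallest such ratio of the 10. Sycp2, the partner of Sycp3 in the lateral elements, had 29, 14, 44 and 23 counts, or 0.470, 0.231, 0.936 and 0.370 TPM. Sycp2 was below Sycp3 and Sycp1 in every library. The difference in level, log2(TPM + 0.1), was 6.11 ± 0.80 (SD, n = 4) for Sycp3 over Sycp2 and 3.93 ± 0.64 for Sycp1 over Sycp2, and neither pair of ranges overlapped.

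The level of Sycp3 carries an uncertainty of its own. In GENCODE M21, 660 of its 1264 exon bases (52.2%) are shared with exons of Chpt1, a phospholipid synthesis enzyme on the other strand, and Chpt1 had 598 to 841 counts a library. Reads from the shared stretch cannot be told apart without strand, and how they were counted is not given. Had none of them been counted, the mean of Sycp3 would be 81.2 TPM. Had reads of Chpt1 been counted for Sycp3 as well, its level would be below the values given, by an amount that was not computed. None of the other 9 genes shared exon bases with another gene. A pseudogene of Sycp1, Sycp1-ps1, had 0, 4, 7 and 13 counts.

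Of the piRNA genes, Mael, a protein of the germ granules, was the higher, at 30.7, 28.8, 32.4 and 23.3 TPM (28.8 ± 3.94 TPM). Stk31, a tudor domain kinase-like protein of germ cells, stood at 9.51, 6.42, 9.77 and 6.94 TPM (8.16 ± 1.72 TPM). Tdrd1, a tudor domain scaffold of the germ granules, had 34, 24, 32 and 25 counts, or 0.605, 0.434, 0.746 and 0.441 TPM. Mael was above Tdrd1 by 5.48 ± 0.21 on the log2 scale, in 4 of 4 libraries. Tex101, a surface glycoprotein of germ cells, had 18, 5, 5 and 9 counts and reached 1 TPM in library 1 only (1.05, 0.297, 0.383 and 0.521 TPM).

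In order of mean level the genes ran Stra8, Sycp3, Mael, Ddx4, Dazl, Sycp1, Stk31, Tex101, Tdrd1 and Sycp2. Only 2 steps in this order kept their direction in 4 of 4 libraries with ranges that did not overlap. Mael stood above Ddx4 by 0.83 ± 0.27 (SD, n = 4) on the log2 scale, and Stk31 above Tex101 by 3.74 ± 0.57. Sycp3 was above Mael in 4 of 4 libraries (0.41 ± 0.25), but their ranges overlapped. The remaining 6 neighbour pairs changed order between libraries, so their members are not ranked against each other: Stra8 with Sycp3, Ddx4 with Dazl, Dazl with Sycp1, Sycp1 with Stk31, Tex101 with Tdrd1, and Tdrd1 with Sycp2. With 4 libraries an exact sign-flip permutation test cannot reach p = 0.05, so no test of the order was made.

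**Figure D2:**
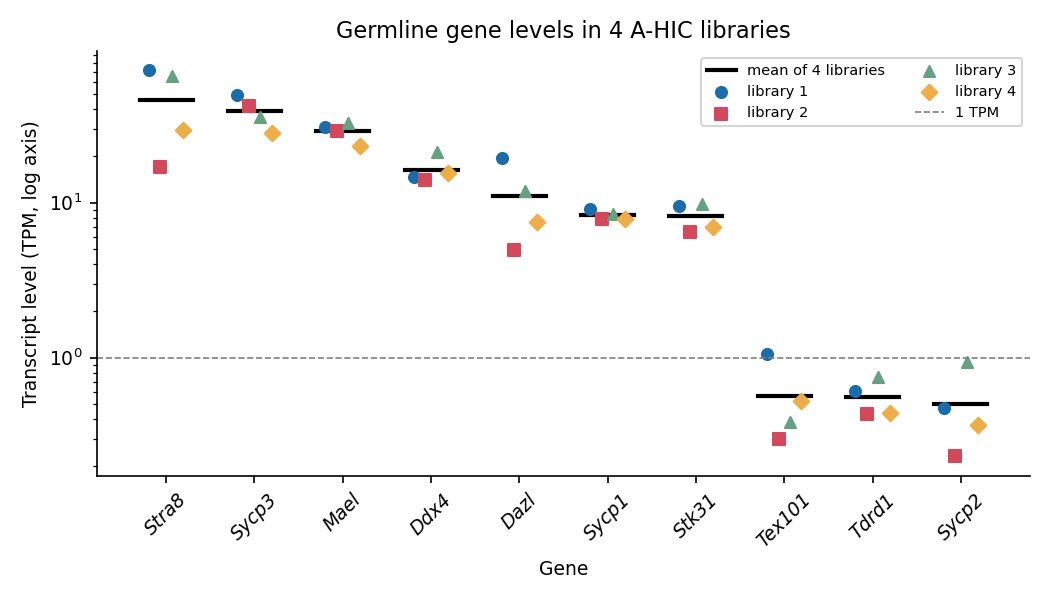
Level of each of the 10 germline genes in TPM (log y axis) in libraries 1 to 4 (symbols), with the mean as a bar and a dashed line at 1 TPM. Of these genes 7 lie above the line in every library, Stra8 and Dazl have the widest ranges among them, and Tex101, Tdrd1 and Sycp2 lie at 0.231 to 1.05 TPM.

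Stra8 and Dazl differed between cultures more than the other expressed genes of the set. The highest library was 4.20 times the lowest for Stra8 and 3.92 times for Dazl, a wider range than in 99.3% and 99.1% of 12629 expressed protein-coding genes, whose median ratio was 1.31. The ratio was 1.15 for Sycp1, 1.39 for Mael, 1.52 for Ddx4 and for Stk31, and 1.76 for Sycp3. The biological coefficient of variation (BCV) estimated by edgeR was 0.437 for Stra8 and 0.412 for Dazl, against 0.178 and 0.216 for genes of the same abundance, and their ratios to that trend were above those of 99.6% and 98.6% of 17398 genes. It was also above the trend for Sycp2 (0.423 against 0.316) and for Sycp3 (0.221 against 0.205). Their ratios to it were above those of 92.6% and 80.3% of genes, and the share of all genes above the trend was not computed. Of the 7 expressed genes 5 held CACGTG in their window, and the 2 that did not were Stra8 and Dazl, a grouping noticed after the values were seen. No relation between the motif and the spread was tested, and the spread was not set against the motif over all genes.

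Each library was set against the other 3 with edgeR's quasi-likelihood test and Benjamini-Hochberg adjustment over all 17398 genes. No gene passed an adjusted p of 0.05 in any of the 4 comparisons (0%), and so none of the 9 germline genes that passed the filter on low counts did. Tex101 did not pass that filter. The other 3 libraries differ among themselves in each comparison, so the lack of calls does not show that the cultures are alike. Before adjustment, 926, 1284, 274 and 269 genes had a p under 0.05 in libraries 1 to 4, among them 1, 2, 1 and 0 of the germline genes, and DESeq2 called 8, 68, 3 and 3 genes after adjustment. Stra8 in library 2 had a log2 fold of -1.70 against the other 3 (edgeR, adjusted p = 0.626) and passed with DESeq2 (adjusted p = 0.0373). Dazl had 1.29 in library 1 and -1.39 in library 2 (edgeR, adjusted p = 0.723 and 0.626).

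These calls depended on which libraries were left in the comparison. Without library 3, the edgeR log2 folds of Dazl and Stra8 in library 1 were 1.66 and 1.64. Without library 4, their folds in library 2 were -1.67 and -2.004. Their folds were 0.92 and 1.48 in library 3 without library 1, and -1.07 and -1.22 in library 4 without library 2. Sycp2 had a log2 fold of 1.62 in library 3 without library 1. Many genes outside the set also passed in these 4 comparisons, so passing was not particular to the germline genes. No gene passed in the other 8 that left out a library. In the 4 comparisons with calls, the other side was libraries 2 and 4 or libraries 1 and 3. In all 12 the spread rests on the 2 libraries on the other side, so calls can depend on how alike that pair is. For that reason only folds are given, and they are printed for genes already seen to vary.

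Among the 7 expressed genes the highest value fell in library 1 for 4 and in library 3 for 3, and the lowest in library 2 for 4 and in library 4 for 3. Over expressed protein-coding genes, libraries 1 to 4 were highest for 25.3%, 31.3%, 22.8% and 20.6% and lowest for 34.2%, 30.3%, 17.7% and 17.8%. Summed over the 10 genes the level was 206, 122, 187 and 119.7 TPM in libraries 1 to 4.

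Markers of several cell states moved in the same or the opposite order, and their part in the germline values was not tested. All 8 pluripotency markers were expressed, against 63.4% of protein-coding genes. Pou5f1 stood at 611, 420, 631 and 498 TPM and Nanog at 651, 352, 540 and 413 TPM. The sum of the 8 markers was highest in libraries 1 and 3, as for Stra8 and Dazl. The 5 markers of the 2-cell-like state that had a row, a state that a few embryonic stem cells enter and that is marked by Zscan4, summed to 136, 40.1, 95.2 and 43.7 TPM. The Zscan4 copies are nearly identical, so their single levels are uncertain. All 9 parietal endoderm markers were lowest in library 1 and highest in library 2, with Lama1, a laminin chain, at 170, 733, 212 and 475 TPM. Of 12 hepatocyte markers, Ttr alone was expressed, and their sum was 8.60, 55.9, 8.72 and 24.7 TPM, while Cyp2e1 and Fabp1 had 0 counts in every library. In bulk RNA, fewer cells of a type and less RNA per cell cannot be told apart.

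Set against Pou5f1 in the same library, the ranges of Stra8 and Dazl narrowed. Pou5f1 was the only reference gene used, and no background for such ranges was computed. Stra8 stood at 11.7%, 4.06%, 10.3% and 5.87% of the TPM of Pou5f1 in libraries 1 to 4, a range of 2.89 times. Dazl stood at 3.19%, 1.18%, 1.88% and 1.503%, a range of 2.70 times. The range also narrowed for Ddx4 (1.41 times), Stk31 (1.12), Tdrd1 (1.34), Tex101 (2.84) and Sycp2 (2.70). It widened for Sycp1 (1.40 times, against 1.15 in TPM), Mael (1.47 against 1.39) and Sycp3 (1.79 against 1.76).

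**Figure D3:**
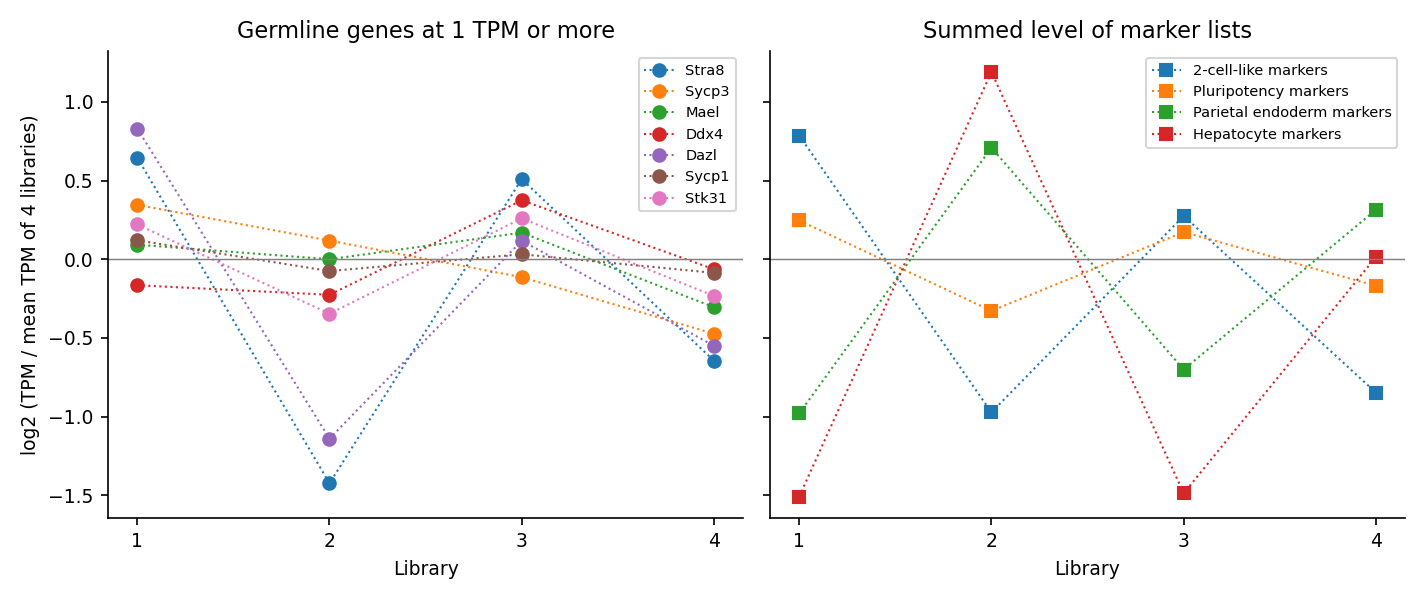
Level in each library over the mean of the 4 libraries (log2, y axis) for the 7 expressed germline genes (left) and for the summed TPM of 4 marker lists (right), by library (x axis), with dotted lines that join values of 1 gene or list. Stra8 and Dazl are high in libraries 1 and 3 and low in libraries 2 and 4, as are the 2-cell-like markers, and the parietal endoderm markers are low in 1 and 3.

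Partner genes in the same processes were then counted. Over 5 lists with 65 genes in all, 47 were expressed (72.3%, against 63.4% of protein-coding genes) and 2 were not detected, and their median mean level was 5.68 TPM. Of the synaptonemal complex and meiotic axis genes, 8 of 11 were expressed, with a median of 8.81 TPM. Syce2, of the central element, led at 94.1 ± 2.54 TPM (SD, n = 4). Stag3 and Smc1b, cohesin subunits of meiosis, stood at 61.1 ± 14.8 and 27.7 ± 4.19 TPM. Tex12, of the central element, and Rad21l, a meiotic kleisin, were lowest at 1.30 ± 0.719 and 0.466 ± 0.217 TPM.

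Among meiotic recombination genes 12 of 17 were expressed and 1 was not detected. Mnd1 and Psmc3ip, which form a complex that helps strand exchange, stood at 96.4 ± 16.9 and 68.7 ± 13.1 TPM (SD, n = 4), and Dmc1, the meiotic recombinase, at 36.6 ± 7.502 TPM. Spo11, the enzyme that makes the meiotic breaks, had 2, 0, 2 and 0 counts, and Mei1, needed for those breaks, stood at 0.501 ± 0.449 TPM. The list thus held genes at high and at near-zero levels side by side.

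Regulators of meiotic entry had 8 of 11 genes expressed and 1 not detected. Dmrt1, Sohlh2 and Taf4b, transcriptional regulators of the germline, stood at 33.6 ± 7.19, 30.2 ± 16.01 and 22.7 ± 1.89 TPM (SD, n = 4). Zglp1 had 0 counts, and Sohlh1 had 9, 0, 0 and 4. Meiosin, the protein partner of STRA8 in starting meiosis, had 11, 26, 12 and 23 counts, a mean of 0.392 ± 0.143 TPM. It was named for that partnership after its values were seen. Stra8 was above Meiosin by 6.36 ± 1.41 on the log2 scale, in 4 of 4 libraries.

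Of 17 piRNA pathway genes 13 were expressed. Tdrd12, Gpat2 and Tdrd7 led at 26.5 ± 2.38, 21.9 ± 7.78 and 14.9 ± 3.12 TPM (SD, n = 4), and Asz1 and Tdrd6 were lowest at 0.228 ± 0.132 and 0.0546 ± 0.0440 TPM. Of 9 germ cell RNA-binding proteins 6 were expressed, with Elavl2, Cpeb1 and Nanos1 at 12.3 ± 1.36, 11.3 ± 1.18 and 9.03 ± 1.12 TPM. Boll, a relative of Dazl, stood at 0.509 ± 0.233 TPM, and Nanos2, a factor of male germ cells, had 4, 0, 0 and 0 counts. Only 2 of the 47 expressed partners, both chosen after their values were seen, spanned 3 times or more between libraries, Fkbp6 (4.38 times) and Sohlh2 (3.12 times). Over expressed protein-coding genes 2.54% spanned as much. Both partners ran in the order of Dazl and Stra8, from library 1 down through 3 and 4 to 2. The share of all genes with that order was not computed. Partners with narrower ranges, Stag3 and Gpat2 among them, ran in it too, as did Nanog, Esrrb and Zfp42. Smc1b and Pou5f1 were highest in library 3.

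Genes of early and late germ cells lay on either side of these lists. All 11 genes of primordial germ cell specification were expressed, against 63.4% of protein-coding genes, with a median of 62.0 TPM. Dppa2, Dppa4 and Prdm14, for example, are also known from pluripotent cells, so the list by itself does not mark germ cells. Its genes shared no single library order, and 5, 3, 1 and 2 of them were highest in libraries 1 to 4. Ifitm3 led at 532 ± 67.2 TPM (SD, n = 4), Dppa4 and Dppa2 followed at 198 ± 36.5 and 130 ± 31.6 TPM, and Prdm14 and Prdm1 were lowest at 18.6 ± 5.51 and 4.16 ± 0.878 TPM. Of 14 spermatid genes 3 were expressed and 7 not detected. Tcp11, Tssk6 and Ldhc stood at 6.10 ± 3.17, 4.39 ± 1.05 and 4.33 ± 1.10 TPM, and Prm2, Spata19 and Pgk2 had 0 counts. Of 12 oocyte genes Zp3, of the egg coat, was expressed at 6.23 ± 1.604 TPM, 6 were not detected and Oosp1 had 0 counts. Markers of the somatic cells of the testis were mostly low, with 1 of 6 Sertoli markers (Sox9) and 2 of 5 Leydig markers (Star and Insl3) expressed, and Fshr, Rhox8 and Lhcgr at 0 counts.

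**Figure D4:**
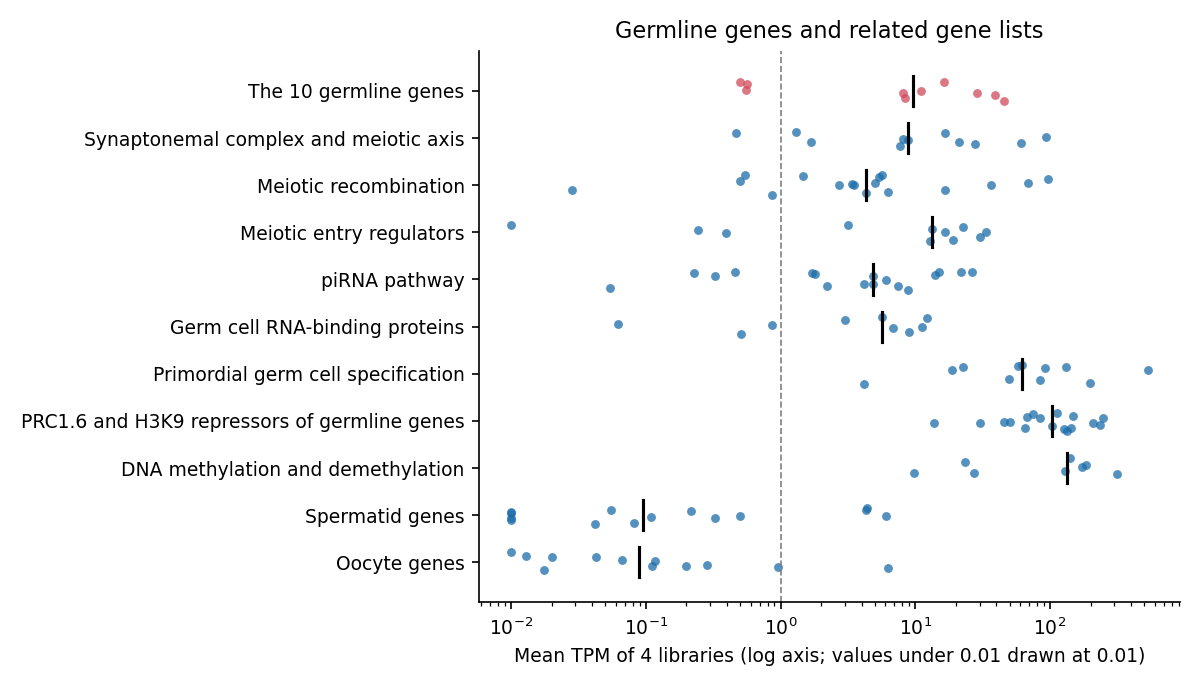
Mean TPM over 4 libraries (log x axis) of every gene in the set of 10 (red) and in 10 related lists (blue), with the list median as a bar and a dashed line at 1 TPM. Spermatid and oocyte genes have medians of 0.0958 and 0.0886 TPM, below the 9.64 TPM of the 10 genes, and the repressor list has a median of 103 TPM.

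Genes listed as repressors of germline genes were transcribed in every library, and repression of the 10 genes was not measured. All 17 genes listed for PRC1.6 and histone H3K9 methylation were expressed, against 63.4% of protein-coding genes, with a median of 103 TPM. Wdr5, Tfdp1 and Hdac1 were highest at 248 ± 41.3, 233 ± 35.9 and 209 ± 9.25 TPM (SD, n = 4). E2f6, the factor that guides PRC1.6 to its targets, stood at 30.1 ± 2.24 TPM and Ring1 was lowest at 13.7 ± 1.51 TPM. All 8 genes of DNA methylation and demethylation were expressed, against the same 63.4%. Uhrf1, which brings the maintenance methylase to replicated DNA, stood at 312 ± 21.8 TPM, Dnmt1, that methylase, at 185 ± 8.64 TPM and Dnmt3l, a cofactor of new methylation, at 171 ± 28.7 TPM. Dnmt3a, which sets new methylation, and Tet3, a demethylating enzyme, were lowest at 23.2 ± 6.01 and 9.81 ± 3.21 TPM. Between libraries E2f6, Uhrf1 and Dnmt1 ranged over 1.19, 1.17 and 1.12 times, while Dnmt3a and Tet3, both highest in library 2 and lowest in library 1, ranged over 1.82 and 1.98 times.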

How the data were processed

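The 4 libraries are 1 group of separately grown cultures. The authors deposited raw counts for each gene. Per the submitters' processing notes they used STAR, featureCounts and GRCm39; versions, annotation and options were not given in the sources used here. Even numbers made up 60.0% to 62.6% of counts between 1 and 8, as when both ends of a pair are counted, so a count may be less than 1 fragment. The 37 mitochondrial rows held 0 counts. A gene with 3 counts stood at 0.0747 to 0.102 CPM, which covers counting error only.

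TPM was computed from the counts and the exon-union lengths of GENCODE M21 (GRCm38), matched to 48798 rows (98.8% to 98.9% of counts), and log2 levels use TPM + 0.1, which understates ratios of low genes. Libraries were compared with edgeR 4.0.16 (TMM, filterByExpr, quasi-likelihood), with DESeq2 1.42.0 as an alternative, under R 4.3.3. A library set alone was taken to vary as the rest do. The edgeR script was first run on simulated data with the same BCV for every gene. These data differ from that setting, so the run does not show what the real comparisons could detect. Python 3.11.15, numpy 2.4.6, pandas 2.3.3 and matplotlib 3.10.9 were used. Sequences are from RefSeq (GRCm38.p6), and coordinates are on that build alone.

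The members, the 16 lists and the tests were chosen with earlier results of these data known. Named genes are the 10 members, the 3 highest and 2 lowest of each list of related genes, and cell type markers, and others are marked. Lists are described by counts and medians without a test. Tcstv1, a 2-cell-like marker, had no row, and 1 further gene that was looked up is not reported here. Alternatives were other lengths, denominators, pseudocounts, thresholds, filters and size factors, and each library left out.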

Additional observations from a re-analysis of the deposited data

How the results depend on the processing

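The 7 expressed genes numbered between 7 and 9 under other thresholds (0.5 and 2 TPM, 10 counts, at least 1 of 4 libraries), the longest transcript as length and each library left out. The median level of the 10 genes and the counts of promoters with each motif also stayed within their limits, and the 4 genes with a BCV above the trend were 4 with RLE size factors or no low-count filter and 3 to 5 with a library left out. With only the bases not shared with Chpt1 as length, an alternative chosen after the data were seen, the log2 level of Sycp3 was 6.31 in place of 5.25. Single levels moved by more than the spread between libraries in 10 cases. Longest-transcript lengths lowered Ddx4, Sycp1, Mael and Stk31 (log2 4.01, 3.07, 4.84 and 3.02) to 3.60, 2.71, 4.46 and 2.61. In mean log2 level such lengths put Sycp3 (4.95) above Stra8 (4.88). In mean TPM Stra8 stayed above Sycp3, at 34.3 against 31.5. A pseudocount of 1 moved Sycp1, Sycp2, Tex101 and Tdrd1, and protein-coding genes alone as denominator moved Sycp1. With CPM in place of TPM the percentile among protein-coding genes moved for 7 genes, Stra8 to 61.8 in place of 78.1, Sycp3 to 54.6 in place of 75.2 and Mael to 54.8 in place of 70.0 among them. The calls of each library against the other 3 changed as well. With no low-count filter edgeR called 1 and 2 of the 10 genes in libraries 1 and 2, and 328, 469, 1 and 6 genes in all for libraries 1 to 4. DESeq2 called 1 of them, Stra8, in library 2, and 8, 68, 3 and 3 genes in all. With 1 of the other libraries left out, edgeR called 0 to 2, 0 to 2, 0 to 3 and 0 to 2 of the germline genes and 0 to 2206, 0 to 2552, 0 to 1303 and 0 to 1386 genes in all. Calls came in 4 of these 12 comparisons and the other 8 had none, and the cause was not tested. The log2 fold of Dazl in library 3, 0.14 with all libraries, ranged from -0.21 to 0.92 and changed sign without library 2 (-0.21) and without library 4 (-0.07). No paired analysis was possible because the libraries form 1 group. Depth limits Sycp2, Tdrd1 and Tex101, which had 5 to 44 counts a library.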

Other observations

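Retinoic acid is known to induce Stra8, so 5 further retinoic acid genes were looked up after the Stra8 values were seen. Cyp26a1, the retinoic acid-degrading enzyme and a common retinoic acid target, stood at 7.47, 30.7, 15.6 and 19.7 TPM in libraries 1 to 4, lowest in library 1, where Stra8 was highest, and highest in library 2, where Stra8 was lowest. Rarb, a retinoic acid receptor and target, stood at 1.84, 4.15, 3.40 and 5.18 TPM, also lowest in library 1. Dhrs3, which limits retinoic acid synthesis, stood at 9.16, 10.7, 6.16 and 9.87 TPM. Crabp2, a retinoic acid-binding protein, stood at 28.7 to 44.4 TPM, highest in library 4, and Aldh1a2, which makes retinoic acid, at 4.23, 7.13, 5.38 and 4.37 TPM. No relation between these genes and Stra8 was tested.

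The spermatid gene Tcp11, at 9.98, 2.41, 6.88 and 5.15 TPM, spanned 4.14 times with its libraries in the order of Stra8 and Dazl. Of the 2-cell-like markers, Usp17la stood at 14.6, 2.67, 7.94 and 4.12 TPM, a range of 5.46 times, in that same order. Both were picked after their values were seen. Other genes, such as Nanog and Stag3, shared that order, and the share of all genes with it was not computed.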
